A study of Mus musculus with 120 samples.

Results

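The hearts considered here were those in which atrial muscle was almost absent from the sample, and the comparison was between exercise-trained and non-exercised mice. The hearts were chosen by their measured level of Myl7, the myosin light chain of atrial muscle: a heart was kept when Myl7 stood below 16 CPM, the standard unit of a gene count divided by the total of its library. This left 22 of the 48 hearts that could be tied to a mutant mouse, 10 exercised and 12 non-exercised, and set 26 aside. Every mouse carried a mitochondrial mutation on the C57BL/6Eij background with an intact Nnt gene (Nnt+/+). ANT1 mice (Slc25a4-/-) lack the adenine nucleotide translocator of heart and muscle. The CO1 mice carry m.6589T>C (CO1V421A) in the mitochondrial DNA (mtDNA), the ND5 mice m.12352C>T (ND5S204F) and the ND6 mice m.13997G>A (ND6P25L). From 16 weeks of age the exercised mice ran for 45 min on every 2nd day at 50% of their maximal capacity over 8 weeks, non-exercised mice were handled, both arms took the exercise tests, and hearts were frozen 6 days after the last session. The kept hearts were 5 exercised and 5 non-exercised from CO1 mice, 3 and 3 from ANT1 mice, 2 and 2 from ND5 mice, and 2 non-exercised from ND6 mice. With no exercised ND6 heart kept, the ND6 hearts add nothing to the training contrast itself. Control mice without a mutation are not analysed here, so the comparison is of training within mutant mice only. The labels name a separate mouse code for each heart and state no batch.

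The ventricle is the pumping chamber, rich in mitochondria and supplied mostly by fatty acid oxidation. Endurance training is known to enlarge it in a benign way, through insulin-like growth factor 1 and the PI3K and Akt kinases. In that growth Cebpb falls and Cited4 rises, without the fetal genes that mark disease. Atrial muscle expresses its own light chains (Myl7, Myl4), sarcolipin (Sln) and natriuretic peptide (Nppa), and a sample with a varying amount of atrium carries those genes in varying amounts. The comparison asked whether training effects in the heart appear once that admixture is removed.

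Because Myl7 chose the hearts, the atrial genes are given as a description. Myl7 lay between 0.897 and 5.21 CPM in the 22 kept hearts, and the closest heart outside the limit, a non-exercised CO1 heart, had 30.5 CPM. Across the 26 hearts set aside Myl7 reached 3656 CPM. Myl4 lay at 1.10 to 9.62 CPM in the kept hearts and at 86.5 to 6101 CPM in the others, so the kept and the other hearts stood apart on this gene as well. Sln was at most 2.22 CPM and Bmp10, an atrial growth factor, at most 5.09 CPM in the kept hearts. Nppa, which the stressed ventricle also makes, was 16.6 to 208 CPM there. Myl2, the light chain of the ventricle, lay between 4220 and 5547 CPM in every kept heart, against 14.7 to 4954 CPM in the hearts set aside. By these markers the kept hearts held ventricular muscle and little atrial RNA. In the 2 arms the medians of Myl7 were 1.98 CPM (exercised) and 1.90 CPM (non-exercised). Within strains the arms were less even. The median log2 fold change of the 7 atrial markers tested, exercised against non-exercised, was 0.04 in CO1, -0.59 in ANT1 and 0.96 in ND5.

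**Figure D1:**
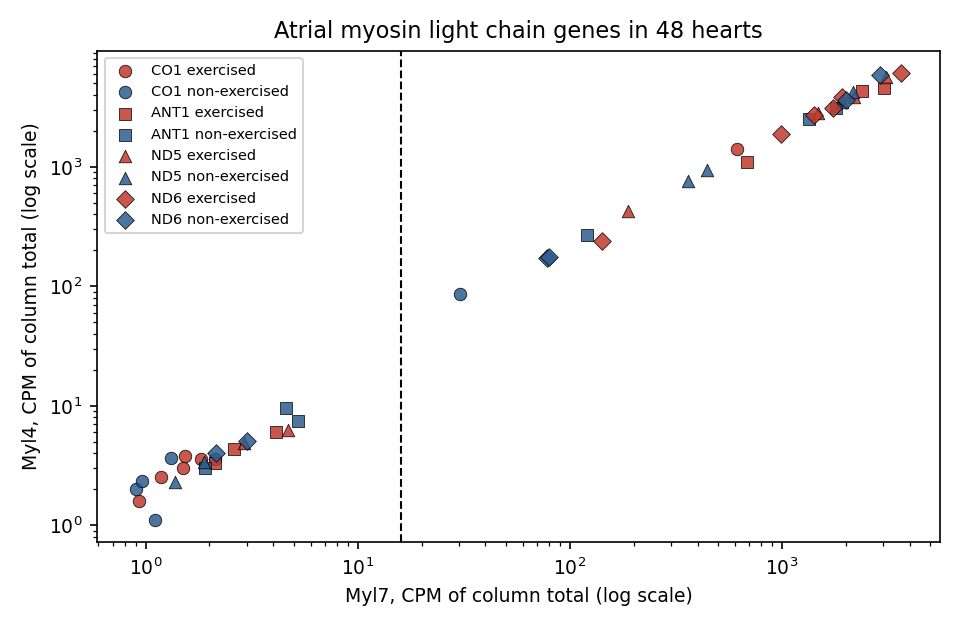
Myl4 against Myl7 in 48 hearts, both in CPM of the column total on log scales, with exercised hearts in red, non-exercised hearts in blue, a symbol for each strain and the limit of 16 CPM as a dashed line. The 22 hearts left of the line had at most 5.21 CPM of Myl7 and 9.62 CPM of Myl4, and the nearest heart to the right had 30.5 CPM of Myl7.

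Total counts of the kept hearts ran from 19.7 M to 26.1 M, with means of 23.1 ± 2.37 M (SD, n = 10) in exercised and 23.6 ± 1.35 M (SD, n = 12) in non-exercised hearts (exact permutation test within strains over 30240 arrangements, two-sided p = 0.394, adjusted over 2 tests 0.787). The targeted gene followed the genotype labels. In the 6 kept ANT1 hearts Slc25a4 stood at 1.77 to 4.50 CPM of the column total, against 3113 to 3832 CPM in the 16 kept hearts of the mtDNA strains. Single messages of lung, fast skeletal muscle and brown fat were near 0 in most kept hearts. Sftpc of lung and Myh4 of fast skeletal muscle had 0 counts in all 22, and Ucp1 of brown fat had a median of 0 CPM. Other members of the brown fat and skeletal muscle lists were not near 0. Cidea of the brown fat list lay at 13.3 to 26.2 CPM in the 22 hearts. The brown fat list summed to 614 to 868 CPM and the skeletal muscle list to 1282 to 1782 CPM. Red blood cell markers were not near 0, with sums of 782 to 17786 CPM. A single exercised ANT1 heart, A64, carried 9.82 CPM of Ucp1 and 11.8 CPM of the fat hormone Adipoq, and it is named again where it touches a result.

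No gene passed the test for a training effect in these hearts. With strain as a covariate, edgeR's quasi-likelihood test called 0 of 13930 genes at a Benjamini-Hochberg adjusted p under 0.05 (0%), with a lowest adjusted p of 0.727. DESeq2 called 0 as well, and 966 genes had p under 0.05 before its adjustment. In edgeR, 950 genes had an unadjusted p under 0.05 (6.82%), 408 higher (2.93%) and 542 lower (3.89%) in exercised hearts. The point estimate was higher in exercised hearts for 50.5% of genes and the median log2 fold change was 0.00. In 0 genes were all exercised hearts on one side of all non-exercised hearts. The number at an unadjusted p under 0.05 depended on single hearts, from 624 without the non-exercised CO1 heart E69 to 1130 without the non-exercised CO1 heart E75, and no gene was called in any of those 22 fits.

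The intervals say how large an effect could have been missed. The 95% interval of the training effect reached a median of 0.19 to either side on the log2 scale, a 1.14-fold difference. It lay wholly within 1.5-fold of no change for 11888 of 13929 genes (85.3%) and within 2-fold for 13536 genes (97.2%). Among 10674 genes with an established name and an average of at least 1 log2 CPM, the fitted log2 fold changes ran from -0.94 to 1.28, and 4 of them exceeded 2-fold. Those 4 were Car3, Cfd, Hp and Cyp2e1, named here after their values were seen, genes that fat tissue expresses. Their fitted fold changes were above 0, but the median of exercised hearts was the lower one, 1.02 against 1.31 CPM for Car3, 0.291 against 0.622 CPM for Cfd, 0.520 against 0.775 CPM for Hp and 0.550 against 0.655 CPM for Cyp2e1. For Cfd the heart A64, at 48.6 CPM, stood above all others. None of the 4 had an unadjusted p under 0.05.

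**Figure D2:**
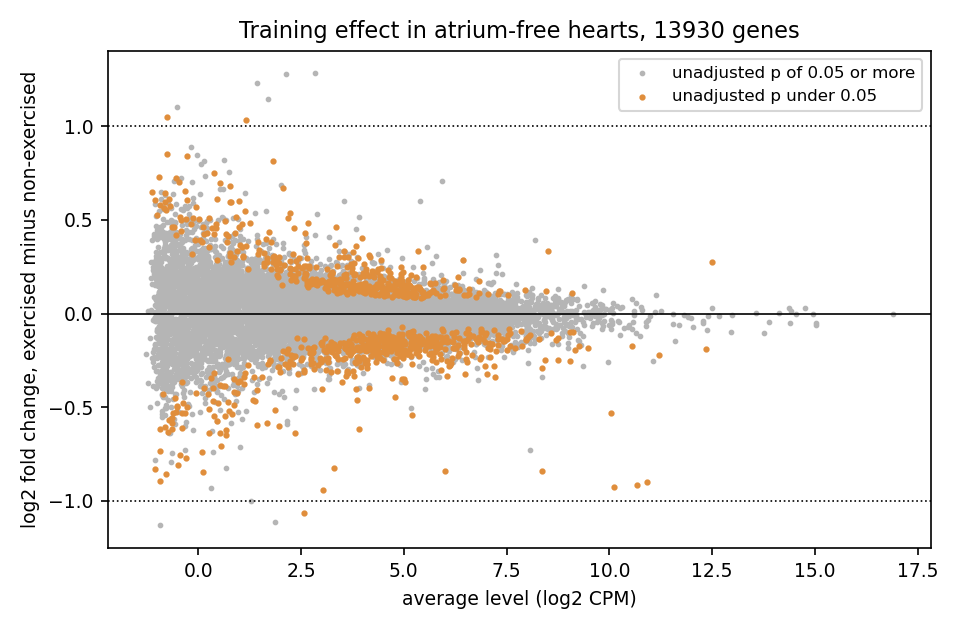
Log2 fold change between exercised and non-exercised atrium-free hearts against the average level in log2 CPM, 1 point for each of 13930 genes, with orange points for an unadjusted p under 0.05 and dotted lines at a 2-fold difference. Of the 950 orange points 408 lie above 0 and 542 below it, and none passed the adjusted threshold.

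The kept hearts scattered less than the hearts set aside or all 48 hearts, but they were also fewer. Strain make-up differed between these sets as well, and the part of atrium in the scatter was not tested. The biological coefficient of variation common to all genes, the scatter that remains beyond counting error, was 16.4% in the kept hearts, 32.7% in the hearts set aside and 32.3% in all 48 hearts with strain as covariate. The median standard error of the training effect was nevertheless 0.0932 in the kept hearts and 0.0931 in all 48, on the log2 scale. In the 13884 genes in both fits the kept hearts gave the smaller standard error for 4687 (33.8%). Among the hearts set aside, that of ND5 mouse B80 is labelled non-exercised while the soleus of the same mouse code is labelled exercised. Its make-up was also unusual, with Myl2 at 14.7 CPM and 9.23% of counts from mtDNA, against at least 26.3% in the kept hearts. Its smooth muscle and pericyte markers summed to 13800 CPM, against at most 1281 CPM in the kept hearts. Values that rest on B80 are also given without it where they move, and whether its label or its make-up moved them was not tested. The hearts set aside gave 0 calls of 14678 genes (199 at an unadjusted p under 0.05, 1.36%), and all 48 hearts gave 0 of 14430 (450 at an unadjusted p under 0.05, 3.12%). Without B80 these counts were 0 again, with 426 and 1160 genes at an unadjusted p under 0.05. The coefficients of variation were then 29.0% and 29.7%, and the median standard error over the other 47 hearts was 0.0864. Against those 47 hearts, the kept hearts gave the smaller standard error for 3792 of 13877 genes (27.3%). The difference between the training effect in kept hearts and that in the hearts set aside was called for 0 of 15244 genes by edgeR, where 274 (1.80%) had an unadjusted p under 0.05. For the same difference DESeq2 called 0 genes (299 with p under 0.05 before adjustment). The hearts set aside were 10 from ND6, 8 from ND5, 6 from ANT1 and 2 from CO1 mice, unlike the kept hearts. The fits held no term for training by strain, so atrial content and strain make-up cannot be told apart in this difference. Without B80 this difference was again called for 0 genes (394 at an unadjusted p under 0.05). Its smallest p belonged to Cep290, a centrosome and cilium gene, with a log2 fold change of -0.31 in kept hearts and 0.16 in the others (adjusted p of the difference 0.9998).

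The gene with the smallest p above 0 was Aldh18a1, which makes the first committed intermediate of proline synthesis in mitochondria. It lay at 5.13 to 9.99 CPM (median 6.69) in exercised hearts and at 3.89 to 6.63 CPM (median 5.09) in non-exercised hearts, where CPM here and below is scaled by TMM. In CO1 mice the arms only just overlapped, the exercised hearts at 5.13, 5.61, 6.28, 7.35 and 8.27 CPM and the non-exercised at 3.91, 4.40, 4.74, 4.97 and 5.22 CPM. Its log2 fold change was 0.43 ± 0.10 (SE; edgeR, unadjusted p = 0.00044, adjusted p = 0.727). With the summed fat marker lists of each heart as a further covariate it was 0.49 with an adjusted p of 0.0387, and Aldh18a1 was then the only gene called. Those lists also hold Cox7a1 and Cox8b, which stand in the complex IV list too. The brown fat sum was 769 CPM of the column total in A64 (Ucp1 9.82 CPM) and 810 CPM in E55 (Ucp1 0 CPM). The covariate is therefore no measure of fat alone. In the hearts set aside the log2 fold change of Aldh18a1 was 0.10 ± 0.13.

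The gene with the smallest p below 0 was Med13, a subunit of the kinase module of Mediator, the complex that links transcription factors to RNA polymerase II. It lay at 29.6 to 36.9 CPM (median 33.3) in exercised and at 31.1 to 50.7 CPM (median 39.8) in non-exercised hearts. In ANT1 mice the exercised hearts stood at 29.6, 30.6 and 31.5 CPM and the non-exercised at 31.1, 40.9 and 42.3 CPM, so that a single non-exercised heart lay within the exercised range. Its log2 fold change was -0.27 ± 0.06 (SE; edgeR, unadjusted p = 0.00037, adjusted p = 0.727) and was -0.05 ± 0.06 in the hearts set aside.

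The other genes with the smallest p were of small effect. The 12 above 0 further held Rab5c, a GTPase of early endosomes (log2 fold change 0.15 ± 0.04), Nubp1 of cytosolic iron-sulfur cluster assembly (0.30 ± 0.08), Abcb9, a lysosomal peptide transporter (0.34 ± 0.09), Tbl3 of ribosomal RNA processing (0.21 ± 0.06), and Cabin1, an inhibitor of calcineurin (0.20 ± 0.06). Mrps16 of the mitochondrial ribosome (0.18 ± 0.05), the complex IV assembly factor Cmc2 (0.24 ± 0.07), the cell death pore Bax (0.22 ± 0.07), and Wdr83os, Ankrd39 and Plpp7 (0.26, 0.28 and 0.21) made up the rest. The 12 below 0 further held the histone demethylase Kdm7a (-0.24 ± 0.06), the histone methyltransferase Ash1l (-0.26 ± 0.07), the co-repressor component Tbl1xr1 (-0.24 ± 0.07), Cdc73 of the Paf1 elongation complex (-0.20 ± 0.06), the homeobox gene Zhx3 (-0.25 ± 0.06) and the splicing factor gene Srrm2 (-0.13 ± 0.03). Tgfbr1, a receptor for transforming growth factor beta, stood at -0.27 ± 0.07, the ubiquitin ligase gene Cblb at -0.31 ± 0.08, Clmn at -0.51 ± 0.14, and Trabd2b and Cep85l at -0.24 and -0.26. These 24 genes had absolute log2 fold changes of 0.13 to 0.51 and an adjusted p of 0.727 each. Of the 24, 22 had the same sign in CO1, ANT1 and ND5 hearts, which these same hearts were used to choose, and 12 had the same sign in the hearts set aside, where 0 reached an unadjusted p under 0.05 (13 and 2 of 24 without B80).

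**Figure D3:**
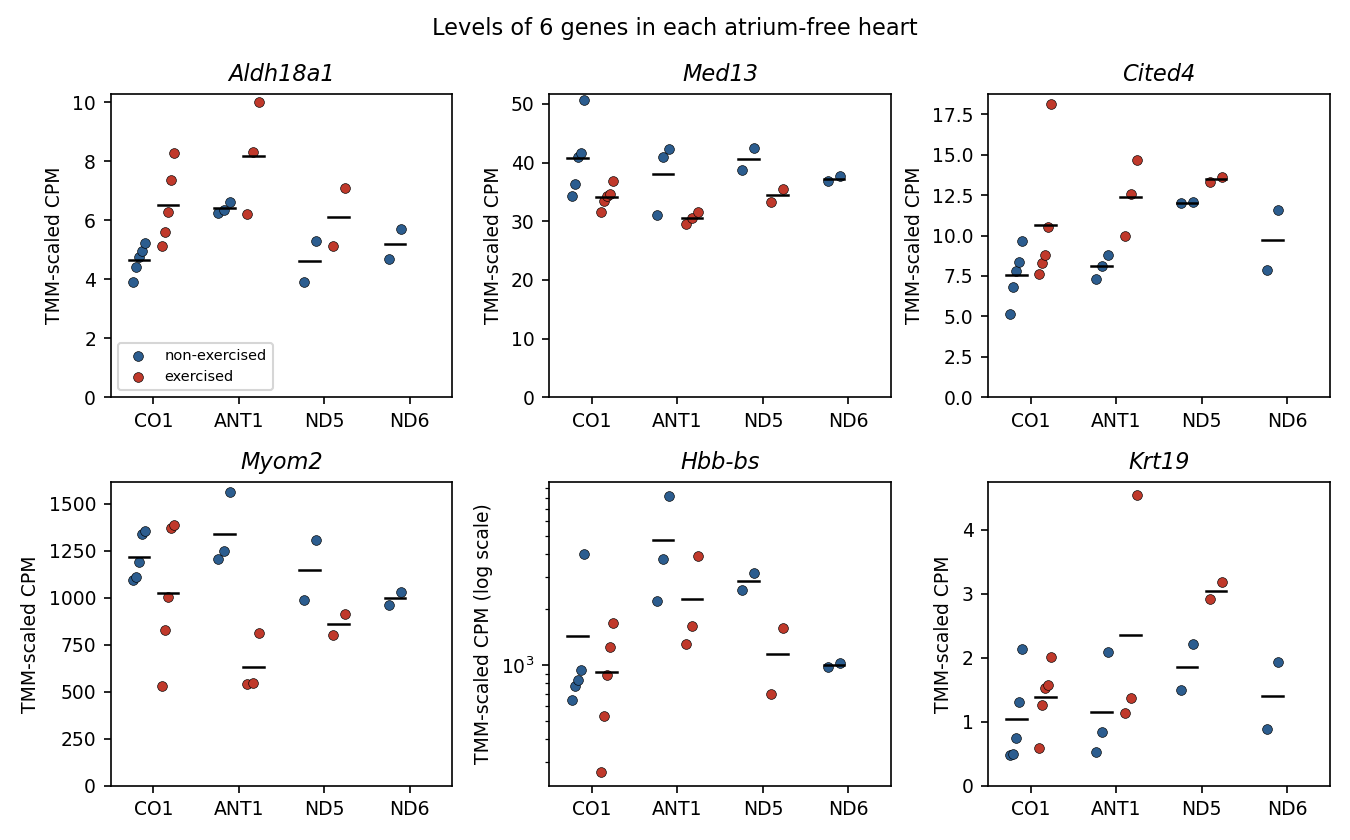
TMM-scaled CPM of 6 genes in each atrium-free heart by strain, with exercised hearts in red, non-exercised in blue and bars at group means; the Hbb-bs axis is logarithmic and the others start at 0. Across strains the arms overlap in each of the 6 genes, and no exercised ND6 heart was kept.

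Other genes were read by function, in 49 lists that held 722 genes. Of these, 654 genes passed the filter on low counts, 0 were called by edgeR, and 25 were higher and 23 lower at an unadjusted p under 0.05 (7.34% together, against 6.82% of all genes tested). For many lists the text gives the count of point estimates above or below 0, the median or both, and not all lists are printed. The median over all genes was 0.00. Some lists printed below without these counts were lopsided too. Glycolysis, glycogen and lactate had 20 above and 4 below 0, fatty acid uptake and oxidation 5 and 17, and the sarcomere genes 4 and 16.

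The 13 protein-coding messages of mtDNA had a median log2 fold change of 0.00, and the 95% interval of every one lay within 1.5-fold. The messages that carry the mutations of 3 strains stood at 0.00 ± 0.08 (mt-Nd5), -0.06 ± 0.08 (mt-Nd6) and 0.00 ± 0.04 (mt-Co1). The share of all counts that came from mtDNA was 30.5% ± 3.85 (SD, n = 10) in exercised and 30.7% ± 4.14 (SD, n = 12) in non-exercised hearts (exact permutation test within strains, two-sided p = 0.992, adjusted over 2 tests 0.992). This share followed strain, at 34.7 to 39.4% in ANT1 hearts, 26.3 to 29.1% in CO1, 27.2 to 28.6% in ND5 and 30.9 to 32.1% in ND6 hearts.

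Of 36 nuclear complex I subunits, 29 had a point estimate above 0, with a median of 0.04 and the interval of all 36 within 1.5-fold. The smallest p values were those of Ndufa12 (0.10 ± 0.04), Ndufa8 (0.10 ± 0.04) and Ndufc2 (0.10 ± 0.05). All 14 genes of complexes II and III with cytochrome c (median 0.03), all 14 of complex IV (median 0.02) and all 15 of ATP synthase (median 0.00) were likewise bounded within 1.5-fold, with Cox6a1 at 0.21 ± 0.08, Cox8a at 0.12 ± 0.05 and Atp5g1 at 0.11 ± 0.04. Mitochondrial ribosomal proteins had 34 of 35 point estimates above 0, a median of 0.07 and 5 genes at an unadjusted p under 0.05, among them Mrpl2 (0.11 ± 0.04) and Mrpl4 (0.11 ± 0.04). All 35 lay within 1.5-fold. In the hearts set aside the median of the same 35 genes was -0.05, or -0.09 without B80. Within strains the medians were 0.02 (CO1), 0.12 (ANT1) and 0.11 (ND5).

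All 22 genes of fatty acid uptake and oxidation lay within 1.5-fold (median -0.03), for example the fatty acid transporter Cd36 at -0.08 ± 0.06 and Cpt1b, which admits fatty acids into mitochondria, at 0.01 ± 0.05. The tricarboxylic acid cycle list had 9 of 18 above 0 and all 18 within 1.5-fold, with Cs (citrate synthase) at 0.00 ± 0.04 and Idh2 at -0.17 ± 0.07. All 24 genes of glycolysis, glycogen and lactate (median 0.04) and all 22 antioxidant genes (median 0.02) were bounded in the same way, with Hk1, the hexokinase, at 0.17 ± 0.06. The regulators of mitochondrial number were 9 above and 9 below 0. Tfam, which packages mtDNA, stood at 0.09 ± 0.04 and Polrmt, the mtDNA polymerase for RNA, at 0.14 ± 0.06, while Ppargc1a was too variable to bound, at -0.34 with an interval from -1.20 to 0.52. Targets of the fatty acid sensor PPAR were 6 above and 9 below 0, among them Slc25a34 at -0.16 ± 0.08 and the variable Pdk4, from 189 to 2292 CPM in exercised and from 281 to 2633 CPM in non-exercised hearts.

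The genes linked to exercise growth of the heart were 8 above and 9 below 0 of 17 tested, with a median of -0.01. Cited4 had the smallest p of them. It lay at 7.60 to 18.1 CPM (median 11.6) in exercised and at 5.17 to 12.1 CPM (median 8.23) in non-exercised hearts, with 9.97, 12.6 and 14.6 CPM in exercised ANT1 hearts against 7.33, 8.13 and 8.80 CPM in non-exercised ones. In ND5 mice the values were 13.3 and 13.6 CPM against 12.0 and 12.1 CPM. The ANT1 and ND5 arms thus did not overlap in Cited4, while the CO1 arms did. Among all 13930 genes the arms did not overlap in ANT1 for 1445 (10.4%) and in ND5 for 4296 (30.8%), so such a separation within a strain was common. Its log2 fold change was 0.46 ± 0.14 (SE; edgeR, unadjusted p = 0.0039, adjusted p = 0.727), 0.33 without the exercised CO1 heart E44, and 0.10 ± 0.24 in the hearts set aside, or -0.011 without B80. Pik3r1, the regulatory subunit of PI3K, stood at -0.32 ± 0.12 and its catalytic partner Pik3ca at -0.14 ± 0.06. Igf1 stood at -0.02 ± 0.15 and Cebpb at -0.13 ± 0.16.

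Fetal and stress genes of the ventricle were 7 above and 8 below 0 (median -0.02) and were among the least precise. Myh7, the slow myosin heavy chain that returns in stressed mouse ventricle, ran from 32.5 to 525 CPM (median 184) in exercised and from 69.1 to 1004 CPM (median 226) in non-exercised hearts, and its interval reached from -1.70 to 0.24. By strain Myh7 stood at 0.03 in CO1, -1.998 in ANT1 and -0.80 in ND5, and the test of a difference between strains did not call it. Nppb stood at 0.26 with an interval from -0.82 to 1.34, and Ankrd1 at 0.05 with an interval from -0.60 to 0.71.

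Of the 20 sarcomere genes, 19 lay within 1.5-fold, with Myh6, the main myosin heavy chain of the mouse ventricle, at 0.00 ± 0.04 and Myl2 at -0.04 ± 0.05. The exception was Myom2, an M-band protein that cross-links thick filaments. It ranged from 531 to 1388 CPM (median 820) in exercised hearts and from 962 to 1563 CPM (median 1196) in non-exercised hearts. In ANT1 mice the exercised hearts had 540, 548 and 811 CPM and the non-exercised 1205, 1246 and 1563 CPM, with no overlap (as for 10.4% of all genes), and in ND5 mice 803 and 911 CPM against 985 and 1304 CPM. In CO1 mice 2 exercised hearts, at 1371 and 1388 CPM, stood above all 5 non-exercised hearts. The log2 fold change of Myom2 was -0.53 ± 0.15 (SE; edgeR, unadjusted p = 0.0024, adjusted p = 0.727), and it was 0.15 ± 0.21 in the hearts set aside, or 0.044 without B80. Actc1, cardiac actin, stood at 0.27 ± 0.12 and at 0.17 without E44, which had 10332 CPM. The giant protein gene Ttn stood at -0.15 ± 0.07.

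Calcium handling genes were all within 1.5-fold (16 of 16, median -0.01), Atp2a2, the calcium pump of the sarcoplasmic reticulum, at 0.00 ± 0.05 and Trdn at -0.12 ± 0.05. The 20 ion channel genes were 5 above and 15 below 0, with 18 within 1.5-fold. Adrenergic and muscarinic signalling genes were 3 above and 11 below 0 (median -0.04), with the phosphodiesterase gene Pde3a at -0.24 ± 0.07. Of the 18 genes of atrophy, autophagy and the proteasome, 13 were below 0 and 3 of these had an unadjusted p under 0.05. They were Foxo3, a transcription factor that drives atrophy genes, at -0.32 ± 0.09, Bnip3l, a receptor for mitochondrial autophagy, at -0.22 ± 0.08, and the ubiquitin ligase gene Fbxo32 at -0.34 ± 0.16, whose strain values were -0.51 (CO1), -0.21 (ANT1) and -0.09 (ND5).

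Hormone and stress programmes were also below the threshold. All 14 glucocorticoid target genes had a point estimate below 0, with a median of -0.16 and 1 of them, Tsc22d3, at an unadjusted p under 0.05 (-0.26 ± 0.10). In the hearts set aside the median of the list was 0.02, or -0.0025 without B80. By strain the list's medians were -0.36 (CO1), 0.04 (ANT1) and -0.08 (ND5). Circadian clock genes were 4 above and 14 below 0, led by Npas2 (-0.39 ± 0.17), and Per1, a clock gene and glucocorticoid target at once, stood at -0.32 ± 0.19 and at -0.19 without either of the non-exercised hearts E75 and A70. Immediate early genes were 4 above and 14 below 0 (median -0.11), and their intervals were wide, with 4 of 18 within 1.5-fold. Of the integrated stress response genes, Vldlr stood at -0.25 ± 0.08 and Pycr1, which closes the proline pathway that Aldh18a1 opens, at 0.46 ± 0.21 on a level of 0.344 to 1.13 CPM. In other lists Dnajb1, a heat shock co-chaperone, stood at -0.40 ± 0.16 and the interferon-stimulated gene Rsad2 at -0.40 ± 0.12. Of 15 cell cycle genes tested, 11 were above and 4 below 0, with the DNA synthesis gene Tyms at 0.38 ± 0.12.

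Of 28 extracellular matrix genes, 0 were called, 24 had a point estimate above 0 and 1 had an unadjusted p under 0.05, with a median of 0.13. Loxl1, a collagen and elastin cross-linker, stood at 0.31 ± 0.13 and Col1a1, a main collagen of scar and matrix, at 0.34 ± 0.19. The list's medians by strain were 0.22 (CO1), 0.09 (ANT1) and -0.12 (ND5), and in the hearts set aside the median was -0.14, or 0.093 without B80. Fibroblast markers, which share collagen genes with this list, had 8 of 10 above 0, with the collagen-processing enhancer Pcolce at 0.22 ± 0.09, and summed to 854 to 1485 CPM of the column total in exercised and 929 to 1375 CPM in non-exercised hearts. The part of fibroblast number in the matrix values was not tested, and fewer cells of a type and less RNA per cell cannot be told apart in whole tissue.

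**Figure D4:**
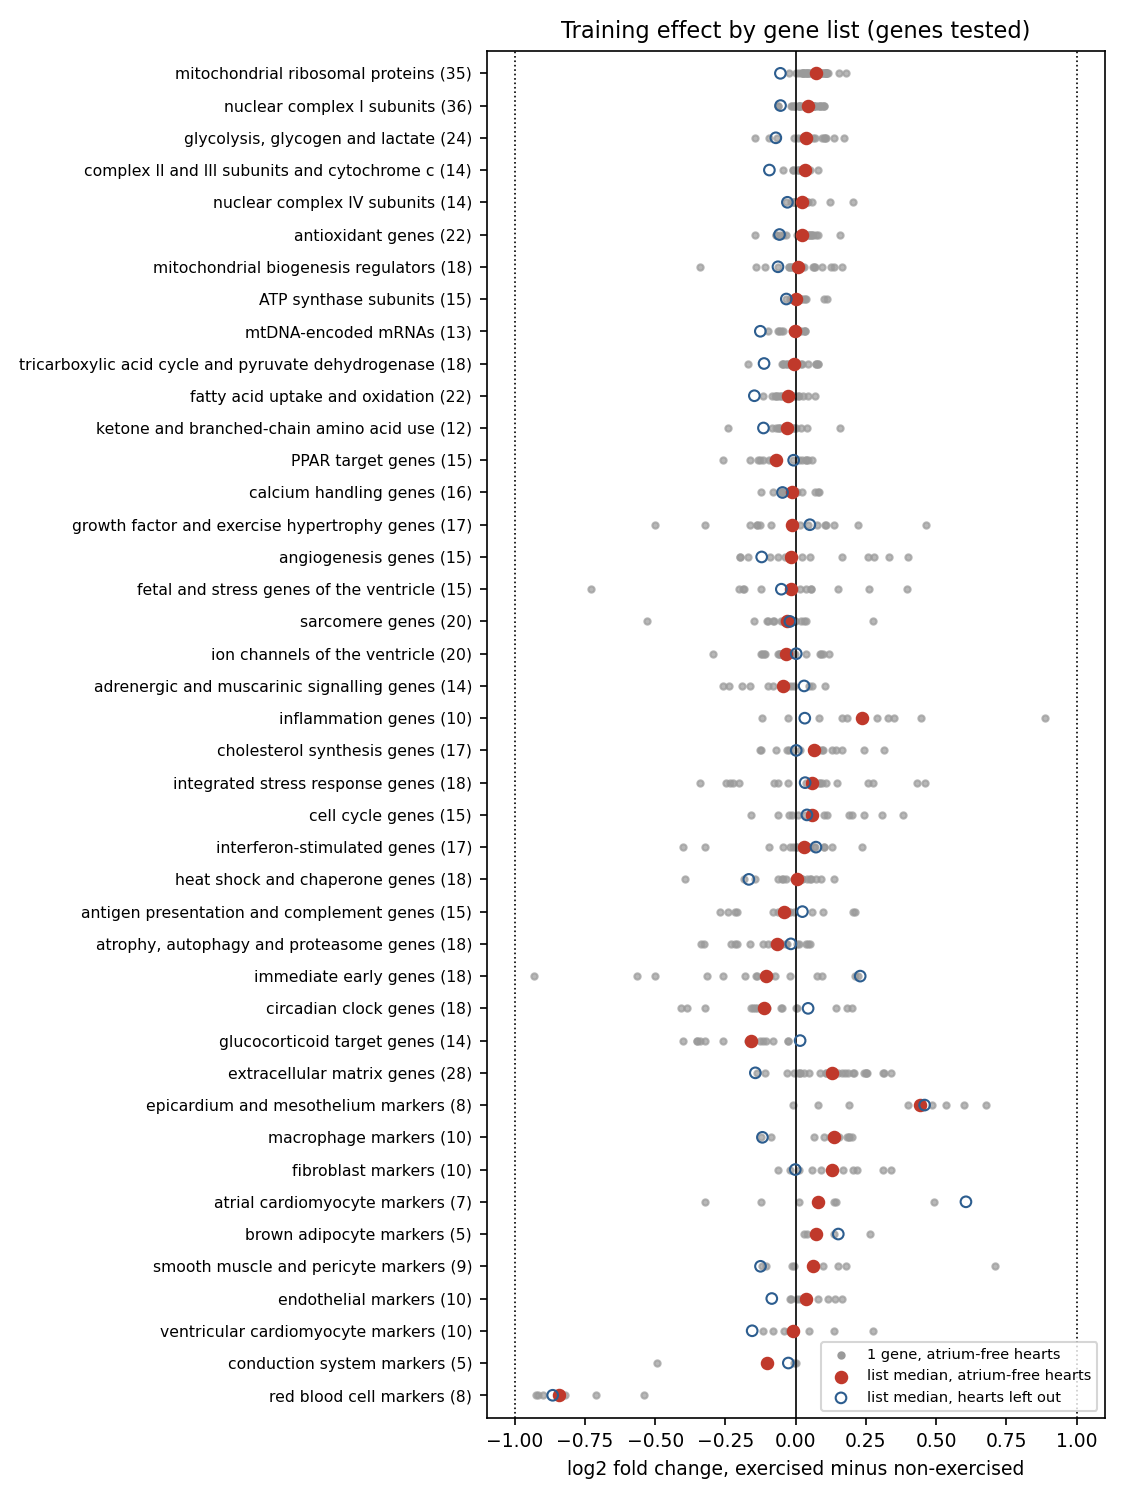
Log2 fold changes between exercised and non-exercised atrium-free hearts by gene list (number of genes tested in parentheses), with a grey point for each gene, the list median as a filled red point and the median of the same genes in the hearts set aside as an open blue circle; dotted lines mark a 2-fold difference. List medians lie between -0.16 and 0.24 except those of red blood cell markers (-0.84) and of epicardium and mesothelium markers (0.44), and 0 of the genes drawn passed the adjusted threshold.

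The largest list medians belonged to cells outside the muscle. All 8 red blood cell genes had a point estimate below 0, 7 of them at an unadjusted p under 0.05, with a median of -0.84 in kept hearts and -0.87 in the hearts set aside, which was -0.38 without B80. The beta globin gene Hbb-bs ran from 266 to 3866 CPM (median 1278) in exercised hearts and from 652 to 8201 CPM (median 1615) in non-exercised hearts. The ranges overlapped, and the highest values among non-exercised hearts were those of the ANT1 heart A70 (8201 CPM) and the CO1 heart E75, at 4002 CPM against 946 CPM for the next CO1 non-exercised heart. The log2 fold change of Hbb-bs was -0.90 ± 0.37 (SE; edgeR, unadjusted p = 0.0235, adjusted p = 0.729), and it was -0.53 without E75. Without the 5 hearts of highest Dbp, a clock gene (among them A70 and E75), it was -0.26 and no longer had an unadjusted p under 0.05. The alpha globin genes Hba-a1 and Hba-a2, near-identical copies between which reads can be split arbitrarily, stood at -0.92 ± 0.38 and -0.92 ± 0.38. The haem synthesis gene Alas2 stood at -0.84 ± 0.35. Summed red blood cell markers lay at 782 to 9723 CPM of the column total in exercised and at 1829 to 17786 CPM in non-exercised hearts. The amount of blood left in a heart is not given by the labels, and its part in these values was not tested.

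Epicardium and mesothelium markers, genes of the outer lining of the heart, had 7 of 8 point estimates above 0 and a median of 0.44, against 0.46 in the hearts set aside. Krt19 stood at 0.68 ± 0.32, on a level of 0.597 to 4.55 CPM in exercised and 0.474 to 2.21 CPM in non-exercised hearts. Without the exercised ANT1 heart A64, which had the highest value, it stood at 0.44. Upk3b stood at 0.60 ± 0.34 and Msln at 0.53 ± 0.33, and without A64 at 0.33 and 0.36. The summed level of the 8 markers was 22.9 to 81.3 CPM of the column total in exercised and 15.0 to 51.0 CPM in non-exercised hearts, and A64 held the highest value. Of the remaining cell type lists, the endothelial markers had 8 of 10 above 0 (median 0.04, Emcn at 0.14 ± 0.07), the macrophage markers 8 of 10 (median 0.14) and the ventricular muscle markers 3 of 10 (median -0.01, all 10 within 1.5-fold). Inflammation genes had 8 of 10 tested above 0, with the highest list median among these programmes, 0.24.

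By strain, the same fit with a mean for each strain and arm called 0 genes within CO1 (432 at an unadjusted p under 0.05, 3.10%; DESeq2 called 0, with 438 before adjustment), 1 of 13930 within ANT1 (0.00718%; 965 at an unadjusted p under 0.05, 6.93%; DESeq2 called 3) and 0 within ND5 (255 at an unadjusted p under 0.05, 1.83%; DESeq2 called 0, with 237 before adjustment). In CO1 the count at an unadjusted p under 0.05 ran from 185 without E69 to 1004 without E75, with 0 called in each of those fits. Without the exercised ND5 heart B9, 1 gene was called within ND5, Eif2s3y, a translation factor gene on the Y chromosome, with the lone exercised heart assumed to vary like the others. The test of a difference between the 3 strains called 1 of 13930 genes (0.00718%; 344 at an unadjusted p under 0.05, 2.47%). Both single calls were Slc25a4, the gene that ANT1 mice lack.

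The residual signal of Slc25a4 in exercised ANT1 hearts was 1.88, 2.47 and 2.58 CPM, and in non-exercised ANT1 hearts 4.04, 5.24 and 5.34 CPM. The arms did not overlap, and each value rests on 41 to 108 counts. The log2 fold change within ANT1 was -1.08 (edgeR, adjusted p = 0.000264), against -0.02 in CO1 and 0.01 in ND5 (adjusted p of the difference between strains 0.0083). The average level of the gene in that fit, 11.2 log2 CPM, is set by the mtDNA strains. In a fit of the 6 ANT1 hearts alone the log2 fold change was -1.09 with an unadjusted p of 0.00144 and an adjusted p of 0.976, and an exact permutation test of 3 against 3 hearts gave p = 0.1, the smallest it can reach. In the ANT1 hearts set aside the means were 2.12 ± 0.545 CPM (SD, n = 3) in exercised and 2.78 ± 0.752 CPM (SD, n = 3) in non-exercised hearts, in CPM of the column total (exact permutation p = 0.3). The difference between strains was no longer called without A64, A70 or A72.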

How the data were processed

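RNA was enriched with oligo(dT) and sequenced as paired-end NEBNext Ultra II libraries, per the labels' protocols. The authors deposited a table of expected counts per gene, made with STAR 2.5.2b, RSEM 1.2.28 and mm10, per the submitters' processing notes. How the counting treated strand was not stated in the labels or notes, so overlapping, antisense and near-identical genes are uncertain. Of 60 columns, 12 were left out because their names could not be tied to a sample. Expected counts were rounded. Genes were filtered with filterByExpr by arm (13930 of 53656 genes kept), scaled by TMM and tested with the quasi-likelihood test of edgeR 4.0.16 in R 4.3.3 (strain plus training), called at a Benjamini-Hochberg adjusted p under 0.05; adjusted p-values of genes are from it unless DESeq2 1.42.0 is named. Among 29 pairs of hearts within a group, 0 held identical values, and the lowest chi-square per gene was 6.77, so each heart was counted once. Where nothing but a mouse code separates samples, p-values measure the spread between those samples.

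The text names Slc25a4, Myl7, mt-Nd5, mt-Nd6 and mt-Co1, the 12 smallest p in each direction at an average of at least 1 log2 CPM, the 6 smallest p for the 2 differences and the 3 smallest p of each list, not all of them printed. Predicted and clone names were left out. Myl4, Nppa, Cs, Cpt1b, Igf1, Cebpb, Ppargc1a, Pdk4, Nppb, Ankrd1, Atp2a2, Myh6, Alas2, Eif2s3y, Dbp, Arntl and Il15 were named outside that rule, after their values were seen. Sftpc, Myh4, Ucp1 and Adipoq, which did not pass the filter on low counts, were also named outside that rule. The hearts, lists and tests were chosen with earlier results of these data known. The tests were tried on simulated counts with known changes. Alternatives were another scaling, no filter, DESeq2, other Myl7 limits, covariates, other sets of hearts and each heart left out.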

Additional observations from a re-analysis of the deposited data

Results flagged for a closer look

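Values were checked in the exercised CO1, the non-exercised CO1 and all exercised atrium-free hearts, for the 72 genes followed in the text, total counts and the mtDNA share. In 23 of 222 such groups (10.4%) the highest or lowest heart stood far from the rest, and the groups share hearts. The rule flags about 1 in 20 by chance only where values are normally spread. Unlogged CPM need not be, so no excess is read from the 10.4%. The values are TMM-scaled CPM.

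The exercised CO1 heart E44 was the highest for Ankrd39 (7.21 among 10 exercised hearts), Cmc2 (31.1), Cited4 (18.1) and Actc1 (10332, both within CO1 and among all 10), and the lowest for Vldlr (203) and Tbl1xr1 (18.2). The exercised ANT1 heart A64 was the highest of the exercised hearts for Hba-a1 (2278), Hba-a2 (3292), Hbb-bs (3866), Upk3b (39.3) and Msln (19.1). The non-exercised CO1 heart E75 was the highest of its group for Hba-a1 (2386), Hba-a2 (3322), Hbb-bs (4002), Myh7 (657) and Bnip3l (71.4), and the lowest for Ndufa12 (113). Single values apart from their group were those of Tgfbr1 in A69 (12.2, lowest), Ttn in E74 (2649, lowest), Trdn in E52 (279, highest), Hk1 in E69 (98.4, lowest) and mt-Nd5 in E53 (14163, lowest). The training effect on Slc25a4, the gene that ANT1 mice lack, was called as different between CO1, ANT1 and ND5 (edgeR, adjusted p = 0.0083). That call rested on 41 to 108 counts in each kept ANT1 heart and was lost without A64, A70 or A72. With only ANT1 hearts in the fit the adjusted p of Slc25a4 was 0.976 (edgeR).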

How the results depend on the processing

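Calls over all genes were 0 under each alternative except the fat marker covariate, which gave 1 (Aldh18a1, 0.49, adjusted p 0.0387). That covariate also holds complex IV genes and is no measure of fat alone. The limit of 8 CPM kept the same 22 hearts. Within ANT1 the count of 1 became 3 with DESeq2 (Slc25a4, Gadd45gip1 and Il15) and 0 with only ANT1 hearts in the fit, where Slc25a4 stood at -1.09. Leaving out each heart gave 0 to 3 calls for the difference between strains, 1 to 3 within ANT1 (3 without A69) and 0 to 1 within ND5. The exercised minus non-exercised mtDNA share, -0.16 percentage points, was 0.093 at a limit of 32 CPM and -0.96 to 0.63 with each heart left out.

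Of 2693 gene values under alternatives, 2659 kept sign and side of the threshold. Apart from Slc25a4 within ANT1, every adjusted p in the fit reported was 0.727 or more, so the side could hardly change. Of the 37 alternatives for a gene over all strains, 22 only left out 1 heart. The count therefore cannot show how firm the values are. Reversed log2 fold changes were, with all hearts, those of mt-Nd5 (-0.16), Ndufa8 (-0.0022) and Mrpl2 (-0.016). With all hearts and Myl7 as covariate they were mt-Nd5 (-0.030), mt-Nd6 (0.0050), mt-Co1 (0.033), Idh2 (0.0090), Myh7 (0.0064) and Emcn (-0.026). With strains weighted equally they were mt-Nd5 (-0.016) and mt-Co1 (0.0056), with the Myl7 covariate mt-Nd5 (-0.00306), and with the fat marker covariate mt-Co1 (0.000868). With Dbp minus Arntl as covariate mt-Nd5 stood at -0.018, and without the 5 hearts of high Dbp mt-Co1 stood at 0.0027. With each heart left out mt-Nd5 ran from -0.033 to 0.062 and mt-Co1 from -0.019 to 0.017. The causes were not tested.

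Fits with the clock covariate, without the hearts of high Dbp, without ND6 and of 1 strain alone and without B80, and each heart left out within strains, were chosen after seeing the data. ND5 mouse B80, whose labels differ between soleus and heart, is not among the kept hearts, so the planned fit without it equals the one reported. Without it the hearts set aside, all hearts and the difference still gave 0 calls. No paired analysis was possible because the labels tie no exercised mouse to a non-exercised one. With 2 to 5 hearts per strain and arm, the 95% interval within strains reached a median of 0.28 (CO1), 0.36 (ANT1) and 0.44 (ND5) to either side on the log2 scale. Low-level genes are the least precise.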

Other observations

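Genes of the circadian clock varied widely within both arms. Dbp, an output gene of the clock, ran from 10.7 to 150 CPM over the 22 hearts, and Arntl, which encodes the core activator BMAL1, from 0.635 to 12.3 CPM, with high Dbp in hearts of low Arntl. The 5 hearts with Dbp above 90 CPM were the exercised CO1 hearts E74 and E80 and the non-exercised hearts E75 (CO1), A70 (ANT1) and I95 (ND6). The medians of Dbp were 41.8 CPM in exercised and 28.8 CPM in non-exercised hearts, with overlapping ranges. The labels used here give no hour of collection. In a fit with log2 Dbp minus log2 Arntl as a covariate, edgeR called that covariate for 2936 of 13928 genes (21.1%) and training for 0 (1259 at an unadjusted p under 0.05), and the biological coefficient of variation was 13.8%. Genes made the covariate, so the count is a description. Without the 5 hearts, training was called for 0 genes (1113 at an unadjusted p under 0.05), Myom2 stood at -0.72 and Hbb-bs at -0.26.

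Il15, which encodes a muscle cytokine, was at 9.51 and 9.29 CPM in the exercised ANT1 hearts A64 and A73, against 1.66 CPM in the exercised heart A69 and 1.53, 2.09 and 2.16 CPM in the non-exercised ANT1 hearts. Gadd45gip1, which encodes a protein of the mitochondrial ribosome, stood at 29.9 and 34.8 CPM in A64 and A73, 19.4 CPM in A69 and 16.2, 16.9 and 18.7 CPM in the non-exercised ANT1 hearts. In the kept mtDNA strains Il15 was 14.1 to 26.5 CPM of the column total and Gadd45gip1 was 31.97 to 39.03 CPM. In the 6 ANT1 hearts set aside Il15 was 1.22 to 2.22 CPM of the column total. In GRCm38 both genes lie on chromosome 8 with Slc25a4, the gene disrupted in ANT1 mice: Slc25a4 at 46207168 to 46211062, Il15 at 82331624 to 82403252 and Gadd45gip1 at 84832282 to 84835482, per RefSeq. These 2 genes and Slc25a4 are the 3 that DESeq2 called within ANT1, and the genotype of A64 and A73 around the disrupted gene was not tested. Both genes were singled out after their values were seen.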
